A study of Drosophila melanogaster with 159 samples.

Results

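Adult fruit flies (Drosophila melanogaster) of the samples titled tudor were compared at 5 d of adult life and on the first day, 0-24 h after eclosion, the emergence of the adult from the pupal case. The comparison used 8 of the 159 arrays of a survey of the fly life cycle on spotted cDNA arrays. These 8 arrays, 2 for each sex at each age, were chosen by title alone, as all adult tudor arrays of those 2 ages. All lay in one set of slides, told by the form of the slide numbers in the titles. Flies were collected within 24 h of eclosion, kept in mixed-sex culture at 25 °C, frozen and then sorted by sex, and poly(A)+ RNA of each sample was hybridised beside a common reference RNA. The tudor gene acts in the mother's germline to form germ cells in the embryo, so the offspring of mothers without it lack a germline. The labels do not say whether the flies or their mothers lacked tudor, nor which allele was used, and the culture text of these arrays names the wild-type strain Canton S. Comparisons with wild type used 8 arrays of wild-type adults of the same ages and sexes, of which replicate 1 lay in another set of slides. No other treatment is given for either genotype.

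Each value is a log2 ratio of the sample to the common reference, centred on the median of its array. The labels give red over green and do not state for each array which dye the sample had, so the direction is likely rather than stated. It was borne out by the seminal fluid gene Acp36DE, which stood at 3.28 to 5.62 in the 4 arrays of tudor males and at -3.17 to -1.04 in the 4 of tudor females. Of 12588 probes, 34.8% to 38.5% had no value on an array. Replicate arrays of one sex and age correlated at 0.859 to 0.919 over probes, lowest for females of 0-24 h, whose median absolute difference between replicates was 0.42 against 0.28 to 0.30 in the other groups. Replicate 1 of those females correlated with the 6 arrays of the other groups at 0.639 to 0.787. The 8 arrays lay on 5 slides. Replicate 1 of both sexes shared a slide at each age, one slide carried male replicate 2 of both ages, and the other slides carried tudor arrays of a single age. The scan comment of replicate 2 of those females names another slide than its title, and the title was kept. The labels do not say that replicates came from separate cultures, so the p-values measure the spread between these samples, which may be technical.

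Germline genes were read first, as a check of the titles. In the fit over both genotypes, tudor minus wild type was called at 2390 of 6842 probes in females, or 34.9%, and at 1347 of 6869 in males, or 19.6%. Over named genes the shares were 36.0% and 21.0%. Of the calls in females 63.5% were higher in tudor, 51.3% where arrays were not centred and 47.7% after quantile normalization, so the majority direction turns with the scaling. Of 13 female germline genes tested in females, 7 were lower in tudor and 0 higher, with a median log2 difference of -1.09. Among them were Pen, an importin, at -4.55, and exu, which localises RNA in the egg, at -4.17 (limma adjusted p 3.62e-05 for both). Of 13 testis and sperm genes tested in males, 11 were lower and 0 higher, with a median of -3.83. Theg, a testis gene, differed by -4.96. In whole flies, fewer cells of a type and less RNA per cell cannot be told apart.

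A newly emerged fly is soft and pale. Over its first hours and days the cuticle is tanned by products of dopamine, new layers of chitin and cuticle protein are laid down inside it, the flight muscles finish their growth, and remnants of larval tissue are broken down. The proteasome, the complex that degrades proteins marked with ubiquitin, works in all cells. The germline makes up much of the mass of a normal adult, above all in females, and these flies offer the change of the body tissues with little of it.

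Among named genes with a role given here, the largest changes at 5 d were decreases of cuticle, pigment and muscle genes. Flightin and ebony fell by factors of 65.3 and 31.1, and the largest increases of named genes were 9-fold at most. Of 7502 probes tested, 665 were called at an adjusted p of 0.05 in limma with sex as a term, or 8.86%. Of these 231 were higher at 5 d (3.08% of probes) and 434 were lower (5.79%), of which 130 and 282 changed at least 2-fold. The median over all probes was 0.03. Only 267 of the called probes carry a single gene name, and the descriptions below are of named genes. Of 2733 named genes tested, 80 rose (2.93%) and 172 fell (6.29%), 252 in all (9.22%). In 210 of the 252 the 4 arrays of one age did not overlap those of the other, 50 higher and 160 lower. Over all named genes 5.23% were higher and 9.77% lower with no overlap. On the slide with males of both ages, which was then left out of the fit, 262 of the 267 probes called without it had the same sign. These were 76 of 77 called higher and 186 of 190 called lower. Of all tested probes 54.2% were above 0 there. The 2 largest decreases lay at probes with no gene name here, probe_6417 at -8.51 and probe_1407 at -7.09.

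**Figure D1:**
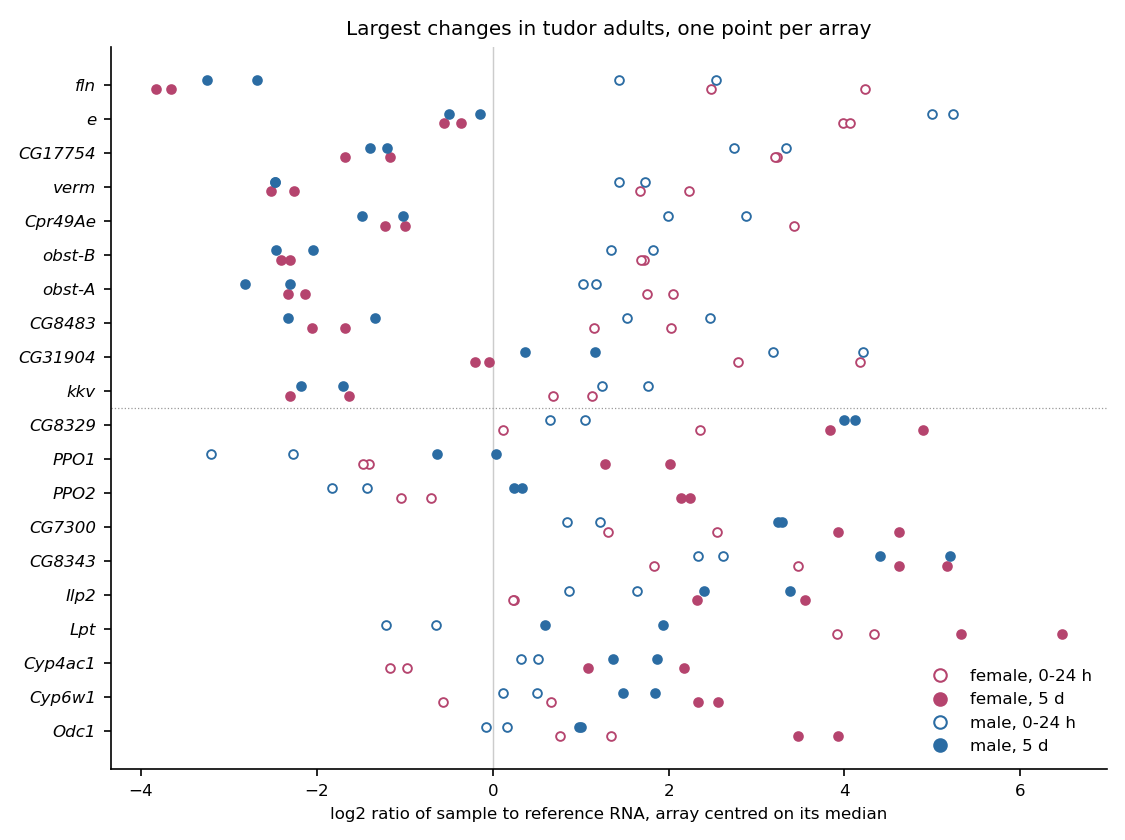
Centred log2 ratios of the 10 largest increases and 10 largest decreases among named genes, one point per tudor array. Open circles are arrays of 0-24 h and filled circles arrays of 5 d, with females in red and males in blue. For the decreases the arrays of 0-24 h lie to the right of all arrays of 5 d. For the increases the ages separate within each sex, while the sexes of Lpt and Odc1 lie far apart.

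Genes of chitin synthesis and turnover held several of the largest falls. Of 12 tested, 6 fell and 2 rose, and the median log2 difference was -1.08, against 0.02 over all named genes. The chitin-binding deacetylase verm stood at 2.23 and 1.68 in females and 1.44 and 1.73 in males of 0-24 h, and at -2.52, -2.26, -2.48 and -2.47 at 5 d. No array of one age came near the other, and the difference was -4.20 ± 0.19 (SE), or 18.4-fold lower (limma adjusted p 6.58e-06). The secreted chitin-binding proteins obst-B and obst-A fell together with it. For obst-B the first-day arrays read 1.72, 1.69, 1.82 and 1.35 and the 5 d arrays -2.41, -2.30, -2.46 and -2.04, a difference of -3.95 ± 0.19. For obst-A they read 2.05, 1.76, 1.17 and 1.03 and then -2.13, -2.33, -2.82 and -2.31, a difference of -3.90 ± 0.20. The ages lay far apart in both genes, and first-day females lay above first-day males in obst-A.

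The chitin synthase kkv, which makes the polymer of the cuticle, was measured at 0.68, 1.13, 1.24 and 1.77 on the first day and at -2.30, -1.63, -1.70 and -2.18 at 5 d. It fell by 8.94-fold (log2 difference -3.16 ± 0.25, limma adjusted p 0.000191). The chitinases Cht2 and Cht7, enzymes that cut chitin, fell by 2.08 and 1.78 on the log2 scale, so enzymes of synthesis and of breakdown moved the same way. The 2 members that rose were Idgf1 and Idgf2, secreted relatives of chitinases that do not cut chitin, at 1.20 ± 0.21 and 0.94 ± 0.17 (limma adjusted p 0.00961 and 0.0107). The other 4 did not pass the test, and lay between -0.38 for obst-E and 0.60 for Idgf5.

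Of 10 cuticle protein genes tested, 4 fell and 0 rose, and the median was -0.61. Cpr49Ae, a member of the largest family of chitin-binding cuticle proteins, read 3.43, 2.88 and 1.99 on 3 arrays of 0-24 h, with no value for female replicate 1, and -1.0, -1.23, -1.02 and -1.49 at 5 d. The fit on 7 arrays gave -4.03 ± 0.30 (limma adjusted p 0.000288). Cpr50Cb, of the same family, had the tightest arrays of the group, at 1.25, 1.04, 1.27 and 1.02 on the first day and -1.02, -0.89, -1.02 and -0.82 at 5 d. Its difference was -2.08 ± 0.16. Vajk4, listed here with the cuticle proteins, fell by 2.55 and Cpr11B by 1.31. The other 6 did not pass the test, among them Cpr72Ec at 0.26 ± 0.40 and Cpr67B at 0.16 ± 0.16.

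Among 8 genes of dopamine synthesis and tanning, 2 fell and 2 rose. Ebony (e) encodes the enzyme that joins beta-alanine to dopamine, which gives the pale and tan parts of the cuticle their colour. It read 3.98 and 4.06 in females and 5.00 and 5.23 in males of 0-24 h, and -0.36, -0.55, -0.50 and -0.15 at 5 d. First-day males lay above first-day females, and all 5 d arrays lay below 0, a difference of -4.96 ± 0.23 (limma adjusted p 6.58e-06). Pu, the GTP cyclohydrolase that starts the synthesis of the cofactor of tyrosine hydroxylase, fell by 1.55 (adjusted p 0.0083). Ddc, the dopa decarboxylase, was at -0.19 ± 0.19 and did not pass.

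The members that rose were 2 prophenoloxidases, enzymes that blood cells hold in store for melanin at wounds and around invaders. PPO1 read -1.41 and -1.47 in females and -3.20 and -2.27 in males on the first day, and 2.02, 1.28, 0.04 and -0.63 at 5 d. PPO2 read -0.70, -1.04, -1.83 and -1.43, and then 2.24, 2.14, 0.33 and 0.24. Females lay above males at both ages in both genes. The increases were 6.82-fold for PPO1 (log2 difference 2.77 ± 0.29) and 5.62-fold for PPO2 (2.49 ± 0.26), with limma adjusted p of 0.000796 and 0.000756. PPO3, which is made in another blood cell type, was at 0.05 ± 0.23.

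Genes of muscle structure fell as well. Of 18 tested, 7 fell, 1 rose, and 17 had a negative difference, with a median of -0.63. Fitted in each sex, 7 were called lower in females, with a median of -0.97, and 1 in males, with a median of -0.35. The difference between the sexes was called in 0 of the 18. Flightin (fln), a thick-filament protein of the indirect flight muscles, stood at 4.23 and 2.48 in females and 2.54 and 1.44 in males of 0-24 h. At 5 d it stood at -3.83, -3.66, -3.25 and -2.68. The first-day arrays were spread widely, the 5 d arrays lay far below them, and the difference was -6.03 ± 0.52 (limma adjusted p 0.000317). Scp1, a calcium-binding protein of the muscle cytoplasm, fell by 2.59, up, the troponin T of all muscles, by 2.29, and tmod, which caps the thin filaments, by 2.10. Paramyosin (Prm), of the thick filament core, read 2.37, 2.19, 1.99 and 2.69 and then 0.11, 0.65, 0.93 and 0.43. Its difference was -1.78 ± 0.23. Actn, the alpha-actinin of the Z-disc, fell by 1.68 and Obsc, the giant kinase of the M-line, by 1.05.

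Genes of other sarcomere proteins did not pass the test. The titin-like bt was at -0.24 ± 0.25, Zasp52 of the Z-disc at -0.31 ± 0.21 and the myosin chaperone unc-45 at -0.09 ± 0.25. Strn-Mlck was at -0.08 ± 0.30 on the probe read for it and at -1.12 ± 0.24 on another (limma adjusted p 0.0206). Msp300, which holds nuclei in place in muscle fibres, rose by 0.75 ± 0.18 (limma adjusted p 0.0373), a call lost when any 1 of the 8 arrays was left out. Another Msp300 probe rose by 0.96 ± 0.20 (limma adjusted p 0.0202). The median of the muscle genes moved with 1 array. Without replicate 1 of the females of 0-24 h, 7 muscle genes fell and 0 rose, and the median was -0.37. Without replicate 2 of those females the counts were the same and the median was -0.76.

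**Figure D2:**
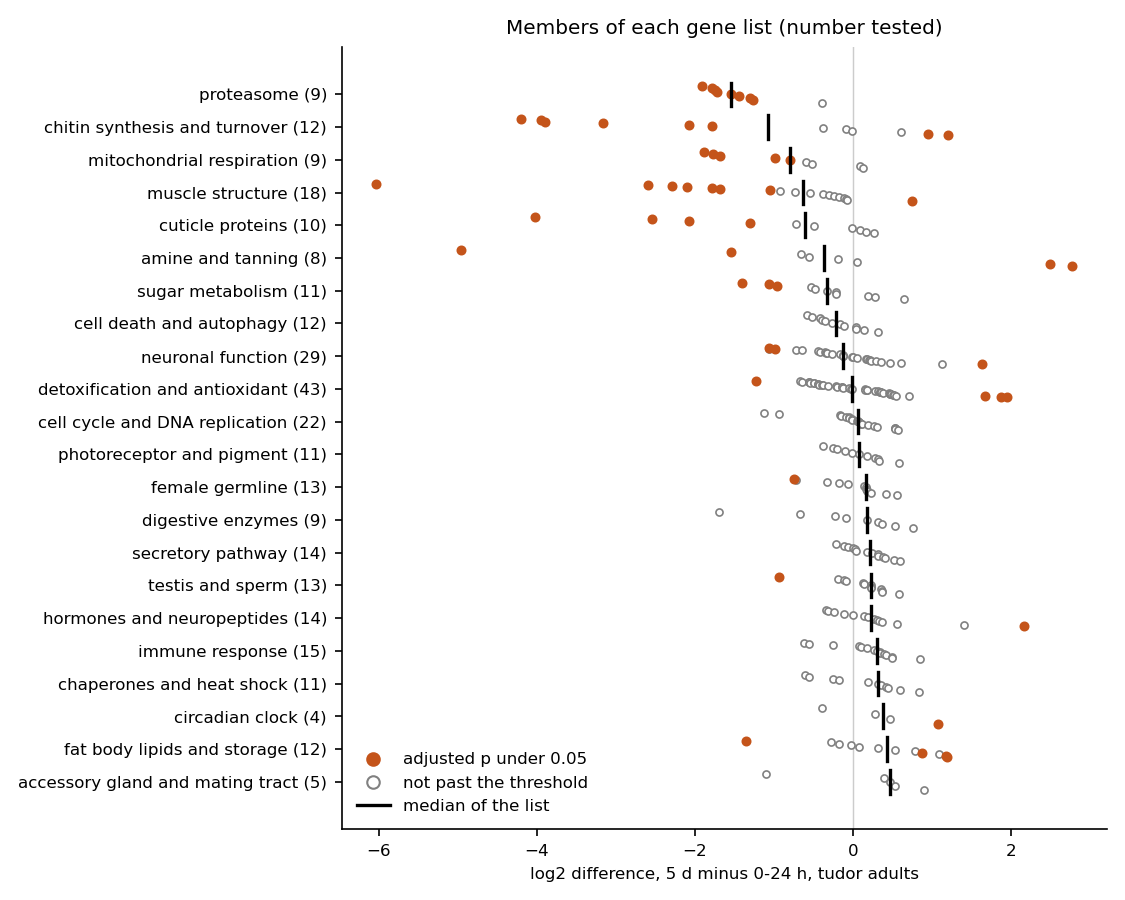
Log2 difference of tudor adults, 5 d minus 0-24 h, for each tested gene of 22 lists, one point per gene, orange where the adjusted p was under 0.05. Black bars are the medians of the lists. The proteasome, chitin and mitochondrial lists have the lowest medians, at -1.55, -1.08 and -0.80.

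Genes of energy metabolism that fell were in the mitochondrion and in glycolysis. Of 9 genes of mitochondrial respiration tested, 5 fell and 0 rose, with a median of -0.80. By sex, 3 were called lower in females, with a median of -0.98, and 0 in males, with a median of -0.50. The sex difference was called in 0. ATPsynF, a subunit of ATP synthase, read 4.47 and 3.56 in females and 3.05 and 2.67 in males on the first day, and 1.66, 1.25, 1.91 and 1.36 at 5 d. Females began higher than males and the ages did not overlap, a difference of -1.89 ± 0.33 (limma adjusted p 0.00882). ATPsynO, of the same enzyme, fell by 1.69, ND-15 of complex I by 1.77, and the citric acid cycle genes Idh3b and ScsbetaA by 0.99 and 0.80. The remaining 4 did not pass, among them ND-42 of complex I at 0.13 ± 0.17. With 1 array left out, 2 to 5 of the 9 fell, 2 without female 5 d replicate 1 or male 5 d replicate 2, 5 without male 5 d replicate 1, and 3 otherwise.

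Of 11 genes of sugar metabolism, 3 fell and 0 rose, with a median of -0.33, where 6.29% of all named genes fell. Over the alternatives 0 to 3 of the list fell. By sex, 1 was called higher and 0 lower in females, and 0 were called in males. Pglym78, a phosphoglycerate mutase, fell by 1.40 ± 0.26, Men-b, a mitochondrial malic enzyme, by 1.07, and Tpi, triose phosphate isomerase, by 0.96. Of 22 alternatives, the call of Men-b was lost in 8, that of Tpi in 6 and that of Pglym78 in 2. The mitochondrial superoxide dismutase Sod2, which detoxifies a by-product of respiration, fell by 1.23 (limma adjusted p 0.0157), a call lost in 6 of 22 alternatives.

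Of 9 proteasome subunits tested, 8 fell and 0 rose, and the median was -1.55. The 8 include subunits of the base, the lid and the core of the complex. Rpt2, an ATPase of the ring that unfolds substrates, read 2.20 and 2.05 in females and 2.09 and 1.85 in males of 0-24 h. At 5 d it read 0.30, -0.09, 0.39 and -0.05. The arrays of each age lay close together with a wide gap between the ages, and the difference was -1.91 ± 0.19, or 3.76-fold lower (limma adjusted p 0.000602).

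Rpn7 and Rpn5, of the lid, changed alike. Rpn7 read 2.38, 2.27, 1.99 and 1.96, and then 0.44, 0.20, 0.48 and 0.29, a difference of -1.79 ± 0.17. Rpn5 read 2.05, 1.75, 1.71 and 1.67, and then -0.13, 0.18, -0.03 and 0.27, a difference of -1.72 ± 0.18. The ages did not overlap in either gene, and the sexes were mixed at 5 d. Of the core particle, the alpha-ring subunits Prosalpha5, Prosalpha1 and Prosalpha7 fell by 1.75, 1.55 and 1.44, and Prosbeta2, a catalytic subunit, by 1.30. Rpt5, another ATPase, fell by 1.27. The exception was Prosbeta4R2, at -0.39 ± 0.31, which was high in wild-type males alone of the 16 arrays, at 1.83 to 3.33, and at or below -1.22 in all tudor arrays.

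Fitted in each sex, 7 of the 9 proteasome genes were called in females and 3 in males, against 4.83% and 1.50% of all named genes. The difference between the sexes was called in 0. Without female 0-24 h replicate 1, 7 of the 9 fell with a median of -1.44. On the slide that carried male replicate 2 of both ages, all 9 were lower at 5 d, with a median of -1.18. That is a description, since these arrays are part of the fit. All 653 called probes with a value on that slide had the sign of the fit there.

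**Figure D3:**
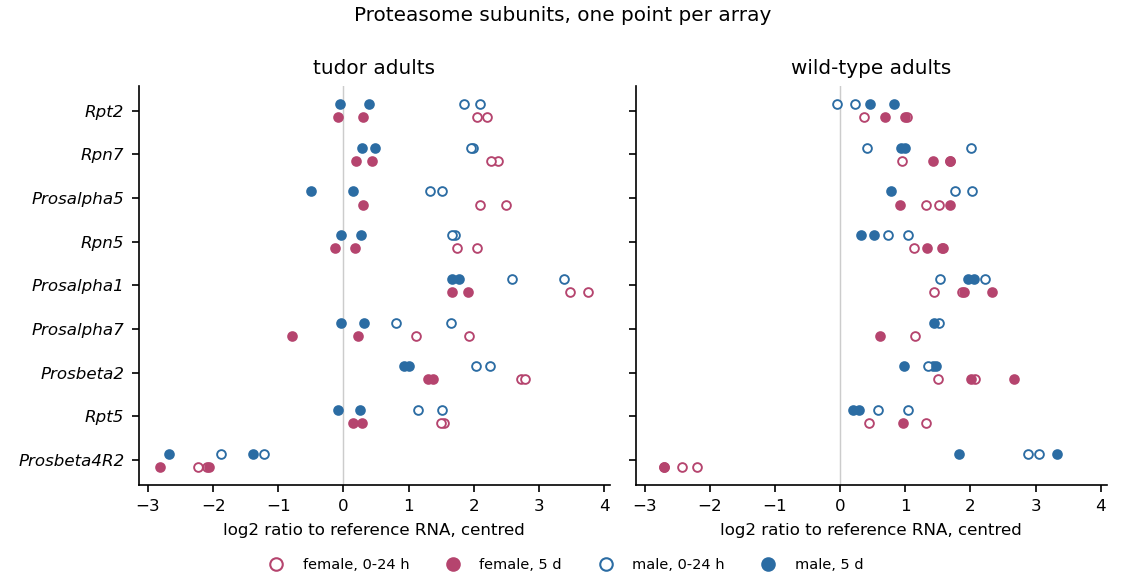
Centred log2 ratios of 9 proteasome genes on each array, tudor in one panel and wild type in the other, with open circles for 0-24 h and filled circles for 5 d, females red and males blue. In tudor the 5 d points lie below the first-day points for every gene but Prosbeta4R2. In wild type the ages overlap.

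Increases were fewer and spread over several roles. The largest of a named gene was CG8329, a predicted secreted serine protease, at 0.12, 2.36, 1.05 and 0.65 on the first day and 4.89, 3.84, 4.00 and 4.12 at 5 d. Its first-day arrays were uneven, all were below the 5 d arrays, and it rose by 3.17 ± 0.44 (limma adjusted p 0.00293). CG7300 and CG8343, to which no role is given here, both rose by 2.28. Ilp2 encodes an insulin-like peptide made by neurosecretory cells of the brain. It read 0.24 and 0.23 in females and 1.64 and 0.87 in males on the first day, and 3.55, 2.32, 3.38 and 2.40 at 5 d. The first-day males lay above the females, the ages did not overlap, and Ilp2 rose by 4.47-fold (log2 difference 2.16 ± 0.37, adjusted p 0.00814). It was the 1 gene of 14 hormone and neuropeptide genes that was called, where 9.22% of all named genes were.

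Lpt and Odc1 rose within each sex from very different levels. Lpt read 4.33 and 3.92 in females and -1.21 and -0.64 in males of 0-24 h, and 5.32, 6.47, 0.60 and 1.94 at 5 d. Odc1, ornithine decarboxylase of polyamine synthesis, read 0.76, 1.35, -0.08 and 0.16 and then 3.93, 3.47, 1.00 and 0.98. Males of 5 d did not reach the females of the first day in Lpt. The name of that probe comes from an old platform annotation and was not checked by sequence, so no role is given. The increases were 1.98 ± 0.35 and 1.80 ± 0.34 (limma adjusted p 0.00961 and 0.0123).

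Of 12 genes of fat body and lipid, 3 rose and 1 fell, with a median of 0.43. With 1 array left out, 1 to 4 rose, 1 of them without either 5 d female, male 0-24 h replicate 2 or male 5 d replicate 1. Fitted in each sex, the median was 0.58 in females, with 1 called higher and 1 lower. In males it was -0.03, with 0 called, and the sex difference was called in 0. Desat1, the desaturase that makes unsaturated fatty acids, rose by 1.18 ± 0.22. Hmgs, of the mevalonate pathway, rose by 1.19 and Lsd-1, a coat protein of lipid droplets, by 0.87. The member that fell was FASN2, a fatty acid synthase, at 2.41, 2.19, 2.11 and 1.43 on the first day and 0.73, 0.52, 0.95 and 0.56 at 5 d, a difference of -1.35 ± 0.23 (limma adjusted p 0.00821). Among 43 detoxification and antioxidant genes, 3 rose, 1 fell and the median was -0.01. The share called was near the 9.22% called over all named genes. Those that rose were the cytochromes P450 Cyp4ac1, Cyp6w1 and Cyp4d21, by 1.95, 1.87 and 1.67.

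Of 29 neuronal genes, 2 fell and 1 rose, a share near the 9.22% called over all named genes. Rim, of the presynaptic active zone, fell by 1.07 and Hk, a subunit of potassium channels, by 0.99. Arc1, whose protein forms capsid-like particles at synapses, read 0.09 and 0.49 in females and 0.30 and -0.01 in males, and then 0.92, 1.40, 2.72 and 2.35. It rose by 1.63 ± 0.32 (limma adjusted p 0.0140), with 5 d males above 5 d females. Of 4 clock genes the 1 called was tim, a light-sensitive partner of period, at 1.07 ± 0.24 on 7 arrays. The labels used here give the first-day window only as 0-24 h and no hour of collection, so clock time and age cannot be told apart.

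No member was called in the lists of immunity (15 tested), digestion (9), photoreceptors (11), cell cycle (22), chaperones (11), secretory pathway (14) or cell death and autophagy (12). Their medians lay between -0.22 and 0.31. Of the 13 female germline genes and 13 testis genes, 1 each fell, del by 0.75 and Pglym87 by 0.94, with medians of 0.16 and 0.22. Over all named genes 6.29% fell. The call of del was lost in 15 of 22 alternatives and that of Pglym87 in 7 of 22.

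The sexes were set against each other by the interaction of sex and age. In limma 0 of 7502 probes were called for it, or 0%, and 453 had an unadjusted p under 0.05. Each sex's own effect was called at 325 probes in females (4.33%; 120 higher, 205 lower) and 96 in males (1.28%; 15 and 81), and the correlation of the 2 effects over all 7502 probes was 0.58. That is a description, since the probes share arrays. The 6 named genes taken here, those with the smallest unadjusted p in each direction, moved apart and did not pass the test. Iris read 0.86 and 0.85 in females of 0-24 h and 3.96 and 3.45 at 5 d, while males went from -0.38 and -0.41 to -0.84 and -0.10 (male minus female effect -2.93, limma adjusted p 0.343). The esterase gene alpha-Est2 differed by -2.96 with the same adjusted p. Acp36DE went the other way, with males rising from 3.37 and 3.28 to 5.62 and 5.07 (difference 3.13, adjusted p 0.532). The rest were SIDL at -2.42, CG16820 at 2.15 and CG5326 at 2.10.

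Wild-type flies of the same ages changed in part alike. In the fit over 16 arrays, 405 of 6858 probes were called in wild type (5.91%), 130 higher at 5 d and 275 lower, and 5.96% of named genes were called. Of 604 probes called in tudor and tested in wild type, 471 (78.0%) had the same direction there, against 58.9% of all 6827 probes. In that same direction 133 of the 604 were called in wild type. These are 22.0% of the tudor calls and 33.8% of the 393 wild-type calls tested in tudor, and 2 probes were called in opposite directions. The effects correlated at 0.42 over 6827 probes. The genotypes share the reference RNA and no array.

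Flightin fell by 6.20 in wild type, Cpr49Ae by 5.03, obst-B by 3.53 and obst-A by 3.06, and the difference from tudor was past the test in none of these. Of 17 muscle genes tested in wild type, 6 fell and 0 rose, with a median of -0.79, and 0 differed between genotypes. PPO1 rose by 2.51 (limma adjusted p 0.00132).

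The change itself differed between genotypes at 74 of 6827 probes (1.08%), 24 of them higher (0.352%) and 50 lower (0.732%) in tudor. That is 32.4% higher, and 43.1% where arrays were not centred. The balance was not stable: 55.8% were higher with the slide set of the tudor arrays alone, 56.6% without wild-type female 5 d replicate 1, and 8.3% without wild-type female 0-24 h replicate 2. It differed at 32 of 2642 named genes (1.21%). Of 8 proteasome genes tested, 5 were lower in tudor and 0 higher, with a median difference of -1.51. In wild type, Rpt2 read 0.37, 1.02, -0.05 and 0.23 on the first day and 0.69, 0.99, 0.46 and 0.82 at 5 d. The wild-type first-day arrays lay below all first-day tudor arrays, the 5 d arrays above all those of tudor, and the difference of the changes was -2.25 ± 0.26 (limma adjusted p 0.00476). Prosalpha1, Rpn7, Rpn5 and Prosbeta2 differed by -1.84, -1.79, -1.54 and -1.49. In wild type 0 of the 8 were called and their median was -0.07. The number called lower in the genotype difference fell to 1 without any one of several arrays of either genotype and with the slide set of the tudor arrays alone, while the median stayed between -1.70 and -1.15 over 27 alternatives.

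Ebony fell in both genotypes and fell further in tudor, the 1 tanning gene of 8 to do so. The other 7 had a positive difference, PPO2 past the test, and the median of the 8 was 0.38. Ebony in wild type read 1.33, 1.32, 1.78 and 1.62 on the first day and -2.07, -2.42, -0.69 and -1.12 at 5 d. It fell by 3.08 there and the change differed by -1.87 ± 0.24 (limma adjusted p 0.00828). The first-day wild-type arrays lay below all first-day tudor arrays, as they did for kkv and Cht2. These were the 2 of 12 chitin genes whose changes differed, by -1.65 and -1.63 (limma adjusted p 0.0368 and 0.0441). Both calls lay near the threshold. The median difference of the chitin genes lay between -0.73 and -0.18 over 27 alternatives. CG17754 fell by 22.5-fold in tudor and by 1.71 on the log2 scale in wild type, a difference of -2.78 ± 0.36. CG17746 went from 1.63, 2.17, 1.65 and 1.25 to -0.65, -0.82, -0.87 and -1.20 in tudor, and was at -0.34 ± 0.21 in wild type.

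Ilp2 was the reverse case, as its wild-type arrays read 1.00, 0.20, 1.17 and 0.85 on the first day and 0.24, -0.02, 1.17 and 0.46 at 5 d. The wild-type ages overlapped (-0.34 ± 0.30, limma adjusted p 0.521), and the changes differed by 2.51 ± 0.43 (adjusted p 0.0221). PPO2 rose further in tudor than in wild type, by 1.42, a call near the threshold (limma adjusted p 0.0385). The slide set, which differed for replicate 1 of wild type, was a term of the fit. The hour of collection within the first day is not in the labels used here, so its part in the difference between genotypes was not tested.

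**Figure D4:**
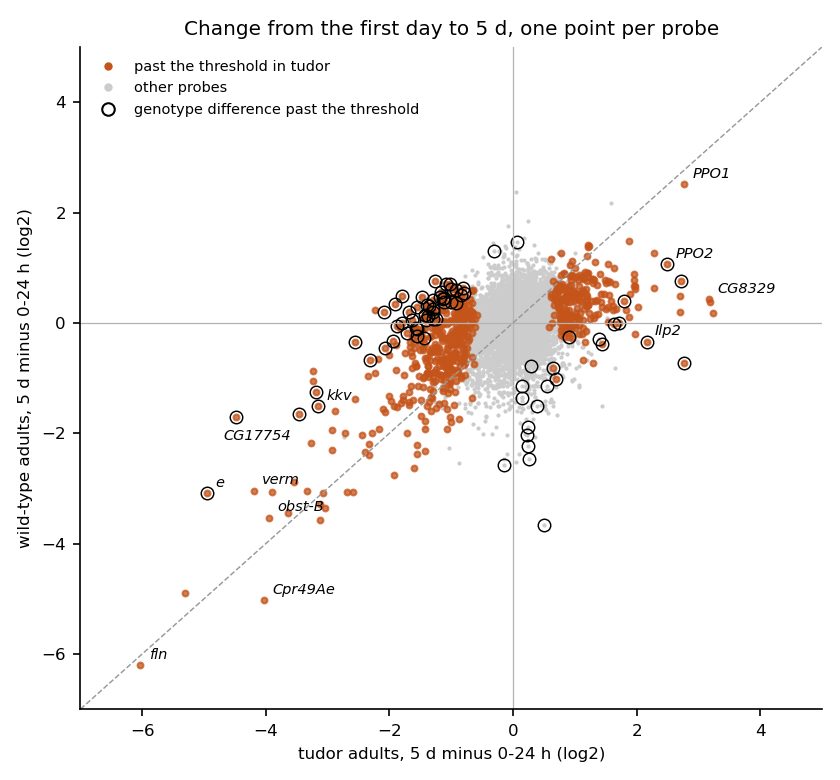
Log2 difference of 5 d minus 0-24 h in tudor (horizontal) and wild type (vertical) for each probe tested in both. Orange points were called in tudor, and rings mark probes whose change differed between genotypes. Flightin lies near the dashed line of equal change, at -6.03 and -6.20, while CG17754 and e lie above it and Ilp2 below it.

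Genes called in tudor were also read in wild-type adults and pupae, none of which entered the comparison of the tudor ages. The wild-type arrays of 0-24 h and 5 d are those of the genotype comparison. From 0-24 h to 3 d, 146 of the 171 genes that fell in tudor were lower (85.4%, median -0.47) and 57 of the 79 that rose were higher (72.2%, median 0.24), while 48.7% of all named genes were higher. In pupae of 96 h, 120 of 170 genes that fell were above wild-type adults of 5 d (70.6%), against 30.8% of the genes that rose and 48.7% of all. Set against wild-type adults of 0-24 h, 51.7% of those that fell and 46.8% of those that rose were above, and 46.2% of all. From 5 d to 30 d, 45.8% of the genes that fell in tudor and 48.7% of those that rose were higher, and 48.7% of all.

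Flightin (fln) had means of 3.02, 3.94, 4.32 and 4.23 in pupae of 60 to 96 h, 3.02 and 3.22 in wild-type females and males of the first day, and -2.02 and -0.45 at 3 d. PPO1 was at -2.96 and -2.79 on the first day in wild type, -0.50 and -0.24 at 5 d, and -2.84 and -2.17 at 30 d. Its 5 d level in wild type was thus above those of the first day and of 30 d. Rpt2 stood at 1.02 in pupae of 96 h and between -0.17 and 1.47 in wild-type adults of every age measured, below the means of 2.12 and 1.97 of first-day tudor females and males.

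**Figure D5:**
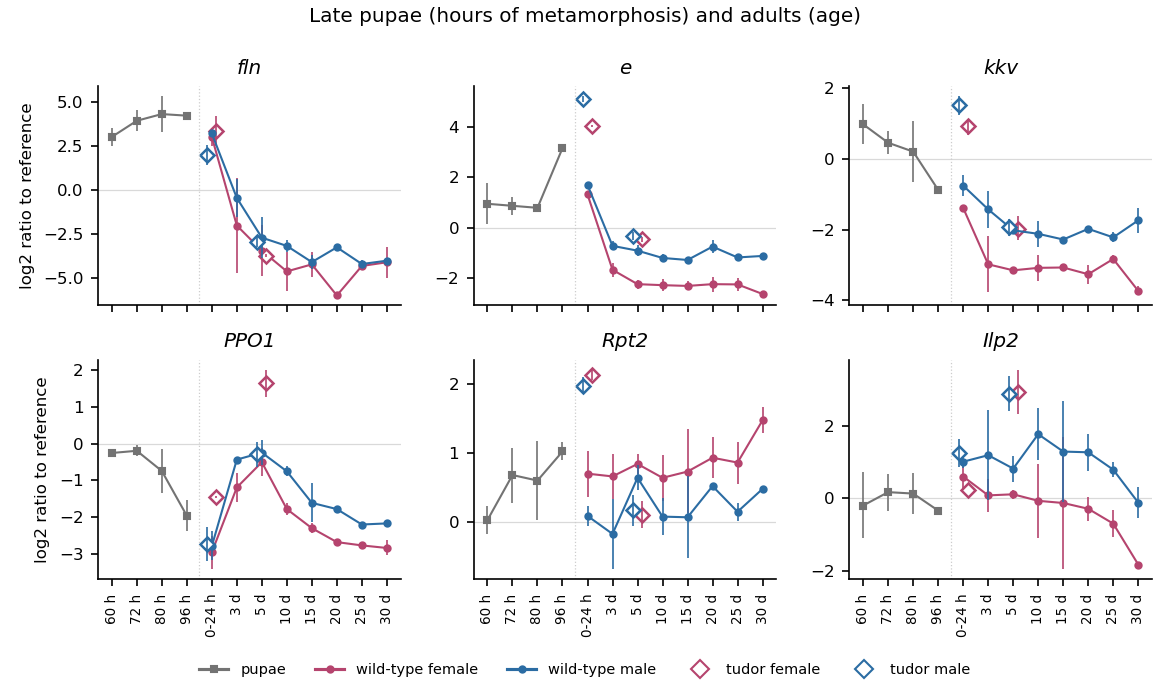
Mean centred log2 ratio of 6 genes in pupae (grey) and in wild-type (lines) and tudor (diamonds) adults by age, females red and males blue. Vertical bars span the lowest and highest array of a group. Flightin and ebony fall after the first day in both genotypes, Ilp2 rises in tudor, and Rpt2 is highest in first-day tudor adults.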

How the data were processed

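The survey measured 12588 probes on 159 arrays. The values are the log2 ratios that the authors deposited, red over green per the labels and read as sample over common reference, and further normalization is not given in the sources used here. The 252 values at the upper limit of 16 were treated as missing, and each array was centred on its median. A GenePix 4000A scanner was used, per the labels' protocols. The number of arrays limits the precision.

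A probe needed values on 80% or more of a fit's arrays to be tested. The test was limma 3.58.1 in R 4.3.3 (lmFit and eBayes), two-sided, at a Benjamini-Hochberg adjusted p of 0.05 over all probes. The 8 tudor arrays had sex and age as terms. Their interaction gave the sex difference, and 16 arrays with a slide set term gave the wild-type and genotype values. The scripts were tested on simulated data.

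Gene names came from the platform annotation, which can be old: 4137 probes had 1 gene, 159 several and 8292 none, and 4089 were matched to current symbols. A gene was read from its probe with the most values. The 10 largest changes each way and up to 3 called genes per list of 25 were named by rule. Other genes of a list were named after their values were seen. From the genotype comparison the rule took the largest differences of each sign past the test, 10 genes in all. In the sex comparison none passed, and it took the 6 genes with the smallest unadjusted p in each direction. Members and lists were chosen with earlier results of these data known. Alternatives were other scalings, filters, probe rules, slide blocks, pooled spreads and each replicate left out.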

Additional observations from a re-analysis of the deposited data

Results flagged for a closer look

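At 32 named genes the change from 0-24 h to 5 d differed between tudor and wild type by the test of the difference itself (limma adjusted p under 0.05). The 10 described here are those the naming rule took from that comparison. Separately, in the genes of the tudor age comparison, 0 of 84 groups of 4 tudor arrays of one age had an array that stood apart. Wild-type arrays were not examined in that way.

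The difference in log2 change, tudor minus wild type, was -2.78 for CG17754, -2.25 for Rpt2, -2.22 for CG17746, -1.93 for Tet and -1.87 for e. For CG17754, Rpt2 and CG17746 it stayed past the threshold under all 25, 27 and 27 alternatives. Tet has another probe, whose tudor change did not pass the test, and with probes averaged the difference was -1.20 (adjusted p 0.115). Tet missed the threshold in 10 of 27 alternatives and e in 1 of 27.

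The difference was positive, at 4.17 for dsx, 2.51 for Ilp2, 2.42 for Bub3, 1.90 for CG18249 and 1.83 for ana. Ilp2 and ana rose in tudor, whereas dsx, Bub3 and CG18249 fell in wild type. Their fitted falls, with slide set as a term, were 3.67, 2.58 and 1.51. Their tudor changes of 0.50, -0.15 and 0.39 did not pass the test. Wild-type values of dsx came from 5 of 8 arrays, and of its groups only the 5 d females had 2. Its array means fell by less than the fit gave, from -1.97 to -3.38 in wild-type females and from -0.95 to -2.77 in males. Its difference ranged from 0.97 to 4.48 over the alternatives, was 1.43 without wild-type female 5 d replicate 2, and missed the threshold in 15 of 22. Bub3 had 6 of 8 wild-type values, one of them -4.13 in a 5 d female, and missed it in 1 of 23. Ilp2 ranged from 2.20 to 2.81 over the alternatives and missed the threshold in 9 of 27. CG18249 missed it in 21 of 25 and ana in 14 of 25.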

How the results depend on the processing

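No named result changed sign under an alternative. The count of 665 probes called between the ages was 374 without the sex term, 56 in females alone, 69 in males alone and 275 without the slide of both ages, and 321 to 538 with 1 array left out (321 without female 5 d replicate 1, 358 without female 5 d replicate 2, 385 without male 0-24 h replicate 1, 442 and 382 without male 5 d replicates 1 and 2). Of 43 named genes, 29 stayed past the threshold under every alternative other than one sex alone. Those that did not were Arc1, del, Desat1, Hk, Lpt, Lsd-1, Men-b, Odc1, Pglym87, Rim, ScsbetaA, Sod2, tim and Tpi. The sex difference had 0 calls, 1 with quantile normalization, 2 with slides as a random block and 2 with the spread of 40 arrays. With 1 array left out it had 0 throughout. For alpha-Est2 the last pair of settings passed the threshold (adjusted p 0.0349 and 0.0291).

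The genotype difference of 74 probes became 31 without the slide set term and 120 with 40 arrays, and ranged from 9 (without tudor female 5 d replicate 1) to 228 (without wild-type female 5 d replicate 1). It moved by over 1.5 times without any single array other than wild-type female 5 d replicate 2 and either tudor female of 0-24 h. Tudor minus wild type ranged from 1444 (without wild-type female 5 d replicate 2) to 2867 in females, and from 701 (without wild-type male 5 d replicate 2) to 1621 in males. Deviations of same-numbered tudor arrays correlated at 0.36 to 0.43 among 3 of the 4 groups. Between females of 0-24 h and those groups they correlated at -0.15 to 0.00. No label says that a replicate number marks a shared collection, so the numbers were not taken to pair the arrays. With the replicate number as a block, 672 probes were called between the ages, 73 for the genotype difference, and 2116 and 1265 between genotypes in females and males. The causes were not tested. With 2 arrays per sex and age, the sex difference is the least precise comparison.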
